A study of Homo sapiens with 8 samples.

Results

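The secreted chemokines CXCL1, CXCL2, CXCL3, CXCL5, CXCL6, CXCL8, CCL2, CCL7 and CCL20 were followed across all 8 libraries of a study of IMR90 cells, a line of human fetal lung fibroblasts. These 9 genes were taken by symbol from the 57736 Ensembl gene IDs of the count files, and each was present in both files. The RNA-seq experiment held 1 library with knockdown of ADAR1 (labelled KD) and 1 control library (Ctrl). The second experiment held shADAR1, shHuR and shControl lines, and each line gave 1 anti-HuR precipitate and 1 input library. The time after knockdown and the hairpin sequences are not given in the sources used here. No library is labelled senescent, and no mock precipitate was analysed here. Every group held 1 library, so no pairwise difference has a replicate check, and the 95% intervals cover counting error only.

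Chemokines are small secreted proteins that attract leukocytes through G protein-coupled receptors. CXCL1, CXCL2, CXCL3, CXCL5, CXCL6 and CXCL8 act mainly on neutrophils through CXCR2, and CXCL6 and CXCL8 also through CXCR1. CCL2 and CCL7 recruit monocytes through CCR2, and CCL20 recruits cells that carry CCR6. Senescent fibroblasts are known to secrete several of them as part of the senescence-associated secretory phenotype. Their transcription is driven by NF-kB after signals such as interleukin 1, and many of their mRNAs carry AU-rich elements in the 3' UTR. HuR (gene ELAVL1) binds such elements and is known for stabilising mRNAs, and ADAR1 (gene ADAR) deaminates adenosine in double-stranded RNA.

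The RefSeq promoter table (build GRCh38.p14) covers 250 bases before to 50 bases after a gene's start and held 8 of the 9 genes, all but CCL2. The letters GGAATTTCC, a form of the kappaB site that NF-kB recognises, were searched on both strands. They occurred in 6 of these 8 promoters, which are the 6 CXC chemokines, and in 162 of 35116 promoters in all (0.461%). They did not occur in the windows of CCL7 and CCL20. The stretches of 49 bases around them are shown, 5′ to 3′ on the gene's strand with the motif in capitals, because this is the feature the CXC members share that the choice of genes did not use.
CXCL8 (chr4:73740458-73740506, plus strand): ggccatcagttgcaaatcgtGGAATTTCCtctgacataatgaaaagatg
CXCL6 (chr4:73836569-73836617, plus strand): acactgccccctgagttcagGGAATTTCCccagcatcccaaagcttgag
CXCL5 (chr4:73998739-73998787, minus strand): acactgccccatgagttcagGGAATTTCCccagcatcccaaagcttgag
CXCL1 (chr4:73869295-73869343, plus strand): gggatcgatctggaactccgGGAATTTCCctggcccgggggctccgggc
CXCL3 (chr4:74038739-74038787, minus strand): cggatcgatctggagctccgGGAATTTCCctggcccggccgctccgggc
CXCL2 (chr4:74099244-74099292, minus strand): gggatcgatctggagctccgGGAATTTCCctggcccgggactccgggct
The motif began 91 bases before the start in CXCL8, 90 in CXCL5, 89 in CXCL6, 78 in CXCL1 and CXCL3 and 77 in CXCL2. Compared base by base without gaps, the stretches of CXCL5 and CXCL6 were identical at 48 of 49 bases and those of CXCL1 and CXCL3 at 45. The stretch of CXCL8 matched the others at 18 to 22 bases, motif included. A match of letters is a description of these sequences and says nothing of binding.

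The 3' UTRs of the CXC genes held more copies of the pentamer ATTTA than those of the CC genes, but per kb CCL20 lay among the CXC genes. ATTTA, written as in DNA, is the core of AU-rich elements. The 3' UTRs of the CC genes were also shorter, 376 (CCL2) to 451 (CCL20) bases, against 673 (CXCL3) to 1995 (CXCL5). In the GENCODE 29 transcripts, the pentamer occurred 11 times in CXCL5, 10 times in CXCL2, 9 times in CXCL8, 7 times in CXCL3, 6 times in CXCL6 and 5 times in CXCL1, against 3 times in CCL20 and once each in CCL2 and CCL7. Per kb of 3' UTR this was 13.9 in CXCL2, 10.4 in CXCL3, 7.19 in CXCL8, 7.08 in CXCL1, 6.65 in CCL20, 5.51 in CXCL5, 5.36 in CXCL6, 2.66 in CCL2 and 2.27 in CCL7. The median over 17668 3' UTRs was 1.57 per kb, and the 6 CXC genes lay at percentiles 91.6 (CXCL6) to 99.6 (CXCL2). CCL20 lay at percentile 95.4, CCL2 at 67.4 and CCL7 at 61.3. The longer form TTATTTATT occurred 5 times in CXCL2, 3 times in CXCL1 and once each in CXCL3 and CXCL8, and 8.0% of 3' UTRs held it at least once. The 30-base stretches with the most pentamers are shown with the pentamers in capitals for CXCL2 and CCL2, recovered above input with shADAR1, and for CXCL8 and CXCL1, which were not.
CXCL2: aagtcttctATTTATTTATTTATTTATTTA
CXCL8: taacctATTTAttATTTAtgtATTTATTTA
CXCL1: cttaggagaagtcttctATTTATTTATTTA
CCL2: tatgccttaagtaatgttaattcttATTTA

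Total counts per library were between 28390935 and 50711218. ADAR had 1445 counts in the RNA-seq KD library, against 7732 in Ctrl (7.01-fold lower), and 3142 counts in the shADAR1 input, against 12890 in the shControl input (2.93-fold lower). ELAVL1 had 674 counts in the shHuR input, against 4806 in the shControl input (6.59-fold lower). All 10 fibroblast markers had at least 50 counts in every library, and their summed level in CPM (counts scaled to library size) was 9610 (shADAR1), 5351 (shHuR) and 8427 (shControl) in the inputs. With shHuR against shADAR1, 4 of the 10 were called lower and 0 higher, beside 9.67% and 5.24% of all genes with enough counts. Against the shControl input, 3 were called higher and 0 lower with shADAR1, beside 9.14% and 10.3%. With shHuR against shControl, 2 were higher and 1 lower, beside 12.2% and 15.6%. The part of these shifts in the chemokine values was not tested. Of 9 leukocyte markers, 1 or 2 reached 50 counts in a library and 4 to 6 were at 0. CD14, a monocyte marker, had 152 counts in the shADAR1 input, 15 in the shHuR input and 1 in the shControl input, and its part in the chemokine values was not tested. The summed leukocyte level was 24.9 CPM (shADAR1), 21.5 CPM (shHuR) and 22.6 CPM (shControl) in the inputs, and ITGAM, TYROBP and CD3E were at 0 in all 8 libraries. That sum was 47.15 CPM in RNA-seq KD and 44.6 CPM in RNA-seq Ctrl. The 5 endothelial markers in the files summed to 56.1 CPM (shADAR1), 27.0 CPM (shHuR) and 14.7 CPM (shControl) in the inputs, mostly TEK, with CDH5 at 0 in all libraries, and their part was not tested. In the RNA-seq pair they summed to 88.9 CPM in KD and 55.1 CPM in Ctrl, with KDR 5.55-fold higher in KD. The 6 epithelial markers summed to at most 1.48 CPM in any input, and to 15.25 CPM in RNA-seq KD and 14.48 CPM in RNA-seq Ctrl. LMNB1, a nuclear lamin whose loss marks senescence, was 2.43-fold lower in the shADAR1 input and 25.1-fold lower in the shHuR input than in the shControl input. In the RNA-seq KD library it was 1.45-fold higher than in Ctrl. CDKN2A, which encodes p16, was 1.60-fold higher in RNA-seq KD than in Ctrl, and 1.19-fold (shADAR1) and 1.85-fold (shHuR) higher than in the shControl input. CDKN1A and SIRT1, from the same list, were at least 2-fold lower in RNA-seq KD than in Ctrl. Neither was called in the inputs with shADAR1 or shHuR against shControl. CDKN1A had 21765 counts in the shADAR1 input, 50339 in the shHuR input and 33593 in the shControl input.

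Chemokine mRNA was scarce in both control libraries except for CCL2, and 7 of the 9 genes were much more abundant in the inputs of both knockdown lines. These are bulk libraries, in which fewer cells that make a chemokine and less RNA per cell cannot be told apart. Counts were scaled within each experiment by TMM, a trimmed mean of log ratios that sets typical genes to a ratio near 1. Summed over the 9 genes, the scaled level was 334.4 CPM in the shADAR1 input and 716.6 CPM in the shHuR input, against 15.0 CPM in the shControl input. In the RNA-seq experiment the sum was 9.33 CPM in KD and 8.76 CPM in Ctrl, close to each other. CCL2 made up most of it. The CXC members alone summed to 3.37 CPM in KD and 1.18 CPM in Ctrl, and all members without CXCL8 to 6.61 CPM and 8.27 CPM. The level in CPM per kb of mRNA, which allows genes to be set side by side, put CCL2 first in the shADAR1 input (119.0; 95% interval 115.0 to 123.1), before CXCL1 (79.7; 77.0 to 82.5) and CXCL8 (65.1; 63.1 to 67.1). CXCL3 (10.7; 9.67 to 11.7) and CXCL6 (9.78; 9.03 to 10.6) came next with overlapping intervals, followed by CXCL5 (6.34; 5.85 to 6.87) and CXCL2 (2.73; 2.27 to 3.26). In the shHuR input CXCL8 came first (296.7 CPM per kb; 293.0 to 300.4), before CXCL1 (78.3; 75.9 to 80.7), CCL2 (71.3; 68.6 to 74.2) and CXCL5 (20.6; 19.8 to 21.4). There, CCL20 (5.94; 5.19 to 6.76) and CXCL3 (5.54; 4.92 to 6.22) overlapped and were followed by CXCL6 (4.10; 3.68 to 4.57) and CXCL2 (1.57; 1.26 to 1.92). In the shControl input CCL2 stood at 17.9 CPM per kb (16.6 to 19.3), and the other 8 lay at or below 0.292 (CXCL8; 0.191 to 0.428), most with overlapping intervals. The leading gene therefore differed between the inputs, CCL2 with shADAR1 and shControl and CXCL8 with shHuR.

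**Figure D1:**
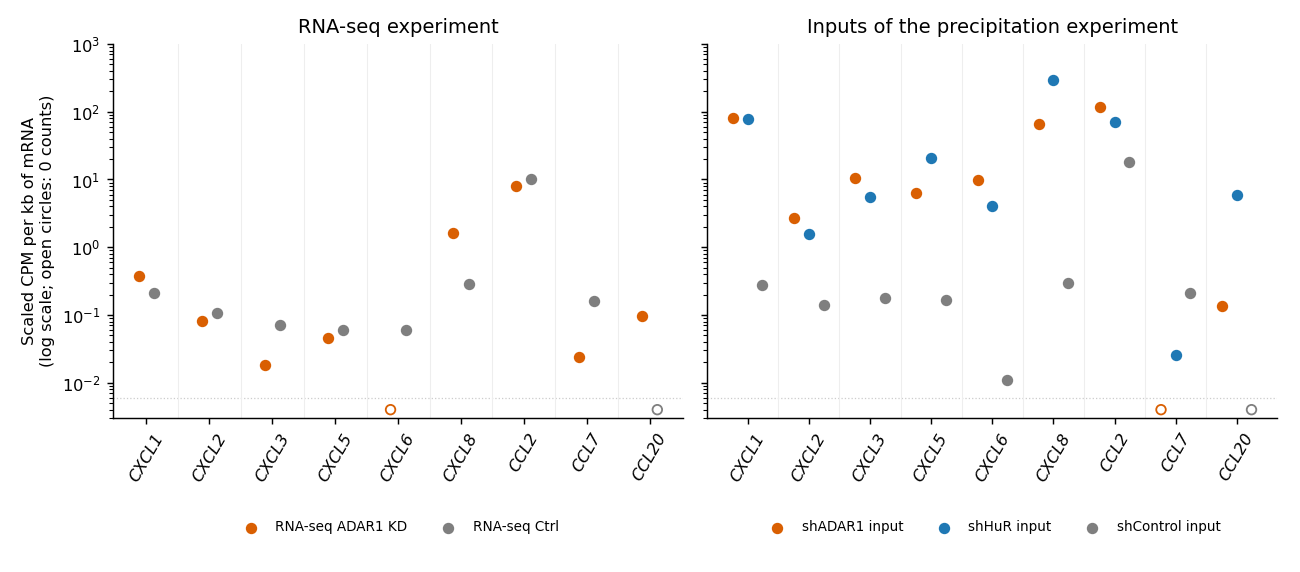
Level of each chemokine in scaled CPM per kb of mRNA, on a log axis, in the RNA-seq pair (left) and the inputs (right); each point is 1 library and open circles are libraries at 0 counts. CXCL1, CXCL2, CXCL3, CXCL5, CXCL6, CXCL8 and CCL2 lie higher in the shADAR1 and shHuR inputs than in the shControl input, while in the RNA-seq pair CXCL8 is the gene that lies clearly higher in KD.

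The ADAR1 knockdown of the RNA-seq experiment was marked by a change in CXCL8 alone among the members with enough counts. CXCL8, also called interleukin 8, had 139 counts in KD and 19 in Ctrl, which was 5.59-fold higher in KD (log2 ratio 2.48, interval 1.79 to 3.26). From the deposited FPKM values, a level scaled by length, its log2 ratio was smaller, at 1.77. CCL2, which attracts monocytes, had 299 counts in KD and 290 in Ctrl (log2 ratio -0.35, -0.58 to -0.11), short of the 2-fold limit. A call needed a difference of at least 2-fold, with a prior count of 2, and at least 50 counts in one of both libraries. With this rule, 1 of 2 members with enough counts was called higher and 0 lower, beside 8.31% of all such genes higher and 7.71% lower. CXCL8 reached 50 counts only in KD, so it had to differ to be counted, and nothing is read from the share. The other 7 genes had at most 21 counts in either library. CXCL1 had 21 counts in KD and 9 in Ctrl (log2 ratio 0.83, -0.35 to 2.14), an interval that spans 0. CXCL2 (5 and 5 counts), CXCL5 (6 and 6), CXCL3 (1 and 3), CXCL6 (0 and 4), CCL7 (1 and 5) and CCL20 (4 and 0) gave no difference detectable at this depth.

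With shADAR1, 7 chemokines were higher in the input than with shControl, by 6.66-fold (CCL2) or more. CXCL1, the growth-regulated oncogene alpha, had 3260 counts in the shADAR1 input, against 16 in the shControl input (285.4-fold higher; log2 ratio 8.16, interval 7.46 to 8.97). CXCL8 had 4136 counts in the shADAR1 input, against 26 in the shControl input (222.8-fold higher; 7.80, 7.25 to 8.42). These were the most abundant CXC chemokines in the shADAR1 input and were near the detection limit in shControl. CXCL3 had 427 counts in the shADAR1 input, against 10 in the shControl input (59.8-fold higher; log2 ratio 5.90, 5.01 to 6.97). CXCL5, a neutrophil attractant of epithelial and stromal cells, had 600 counts in the shADAR1 input, against 22 in the shControl input (38.2-fold higher; 5.26, 4.64 to 5.94). CXCL2 had 124 counts in the shADAR1 input, against 9 in the shControl input (19.3-fold higher; 4.27, 3.30 to 5.43). The intervals of all 3 lay well above 0. CXCL6 had 626 counts in the shADAR1 input, against 1 in the shControl input, a log2 ratio of 9.78 with an interval of 7.29 to 15.1. CCL2 had 3287 counts in the shADAR1 input, against 691 in the shControl input (6.66-fold higher; 2.74, 2.62 to 2.86), the smallest of these ratios from the highest level in shControl.

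CCL7 and CCL20 did not follow. CCL7, a close relative of CCL2, had 0 counts in the shADAR1 input, against 9 in the shControl input, which is at least 2.14-fold lower with the floor of 3 counts per library. CCL20 had 4 counts in the shADAR1 input, against 0 in the shControl input, with a log2 ratio whose 95% interval reaches down to -0.11. Both lay under the 50 counts needed for a call. Of the 7 members with enough counts, 7 were called higher and 0 lower in the shADAR1 input, beside 9.14% of all such genes higher and 10.3% lower. All of these 7 except CCL2 reached 50 counts only in the shADAR1 library, so they had to differ to be counted, and the count is given as a description.

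With shHuR, the same 7 chemokines and CCL20 were higher in the input than with shControl, with CXCL8 far above the rest. CXCL8 had 24392 counts in the shHuR input, against 26 in the shControl input (1016-fold higher; log2 ratio 9.99, interval 9.44 to 10.6). CXCL1 had 4142 counts in the shHuR input, against 16 in the shControl input (280.3-fold higher; 8.13, 7.43 to 8.94). CXCL5 had 2520 counts in the shHuR input, against 22 in the shControl input (124.0-fold higher; 6.95, 6.35 to 7.63). All 3 are neutrophil attractants and had at most 26 counts in the shControl input. CXCL3 had 287 counts in the shHuR input, against 10 in the shControl input (31.1-fold higher; 4.96, 4.06 to 6.03). CXCL2 had 92 counts in the shHuR input, against 9 in the shControl input (11.1-fold higher; 3.47, 2.48 to 4.64). CXCL6 had 340 counts in the shHuR input, against 1 in the shControl input, a log2 ratio of 8.52 with an interval of 6.04 to 13.8. As with shADAR1, the ratio of CCL2 was the smallest of the called genes, with 2549 counts in the shHuR input against 691 in the shControl input (3.99-fold higher; 2.00, 1.88 to 2.12).

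CCL20, the ligand of CCR6, had 229 counts in the shHuR input, against 0 in the shControl input, at least 82.6-fold higher. CCL7 had 1 count in the shHuR input and 9 in the shControl input (log2 ratio -3.06, interval -8.51 to -0.20), under the count limit. With 8 members past that limit, 8 were called higher and 0 lower, beside 12.2% of all such genes higher and 15.6% lower. Here too CCL2 was the only one with 50 counts in both libraries. The shADAR1 and shHuR values share the shControl input, so their likeness is not independent evidence.

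**Figure D2:**
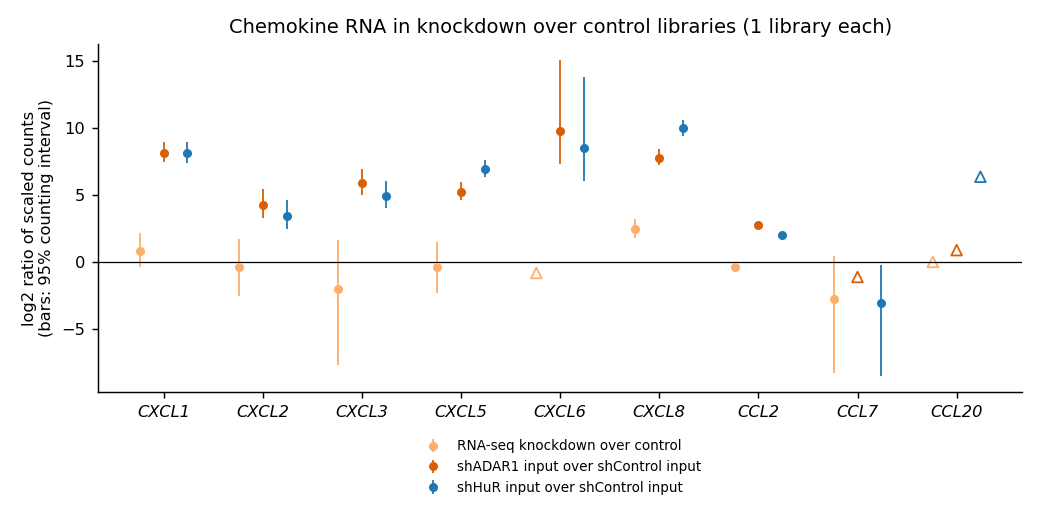
Log2 ratio of scaled counts for each chemokine in the RNA-seq pair and in both input comparisons; points are ratios of 1 library to 1 library, bars are 95% counting intervals, and open triangles are bounds where a library held 0 counts. CXCL8 lies above 0 in all 3 comparisons, while CCL2 lies at -0.35 in the RNA-seq pair, 2.74 with shADAR1 and 2.00 with shHuR.

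Set directly against the shADAR1 input, which does not involve the shControl libraries, the shHuR input held a different mixture of the chemokines. CXCL8 was 4.56-fold higher with shHuR (24392 against 4136 counts; log2 ratio 2.19, interval 2.14 to 2.24). CXCL5 was 3.25-fold higher with shHuR (2520 against 600 counts; 1.70, 1.57 to 1.83), and CCL20 was 44.3-fold higher (229 against 4 counts; 5.47, 4.09 to 7.36). In the other direction, CXCL6 was 2.38-fold lower with shHuR (340 against 626 counts; -1.25, -1.45 to -1.06). CXCL6 is the closest relative of CXCL5 in promoter sequence among the stretches shown, and the pair lay on opposite sides of 0 here. CXCL3 (1.93-fold lower), CXCL2 (1.74-fold lower) and CCL2 (1.67-fold lower) were lower with shHuR by less than the limit, with intervals that exclude 0. CXCL1 did not differ detectably, with a log2 ratio of -0.03 (-0.09 to 0.04). Among 8 members with enough counts, 3 were called higher and 1 lower, beside 5.24% and 9.67% of all such genes. CCL20 reached 50 counts only with shHuR, and the other 7 did so in both libraries.

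The CXC members lie in a run of 9 chemokine genes on chromosome 4 in RefSeq's gene order (GRCh38.p14), from CXCL8 through CXCL6, PF4V1, CXCL1, PF4, PPBP, CXCL5 and CXCL3 to CXCL2. PF4, PF4V1 and PPBP encode platelet chemokines. PF4V1 had 247 counts in the shADAR1 input, 11 in the shHuR input and 0 in the shControl input. PF4 had 28, 3 and 0 counts in the same order of libraries, and PPBP had 0, 4 and 0. PF4V1 and PF4 were thus seen mainly in the shADAR1 line, and PPBP was near 0 in every input. Next to CXCL2, MTHFD2L, a mitochondrial enzyme of folate metabolism, had 117 counts in the shADAR1 input, 171 in the shHuR input and 152 in the shControl input. EREG, the EGF-family ligand epiregulin, lies 3 genes beyond CXCL2 and had 2304 counts in the shADAR1 input and 2209 in the shHuR input, against 184 in the shControl input. EREG was 17.5-fold (shADAR1) and 13.0-fold (shHuR) higher, while MTHFD2L had log2 ratios of 0.11 and 0.28 with the prior count. On the other side, AFM was at 0 counts in all libraries and AFP had 23, 60 and 13 counts in the inputs with shADAR1, shHuR and shControl. The promoters of PF4V1, PPBP and EREG in the table held no GGAATTTCC.

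**Figure D3:**
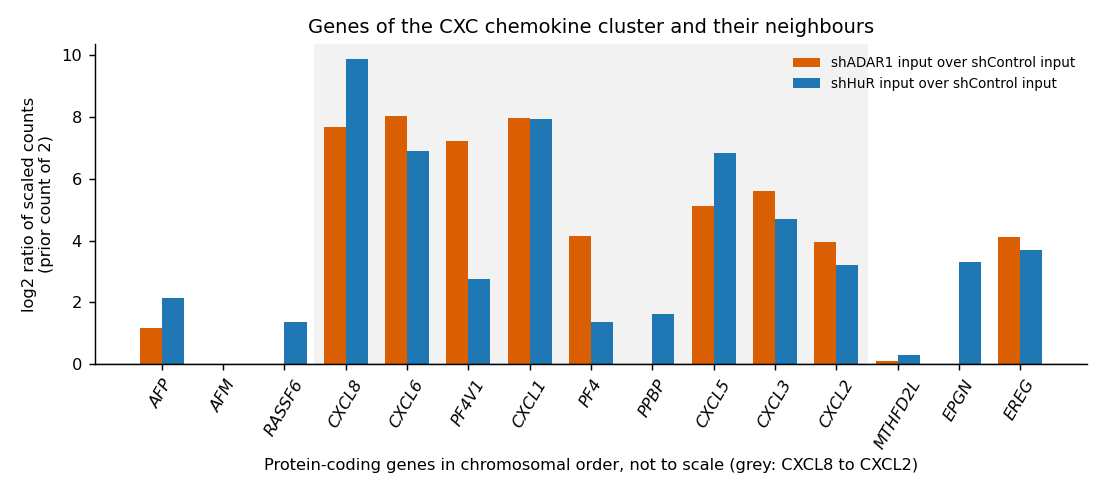
Log2 ratio of scaled counts, with a prior count of 2, for protein-coding genes in their order on chromosome 4 (RefSeq, GRCh38.p14), with shADAR1 and shHuR inputs set against the shControl input; distances are not to scale and each bar rests on 1 library per group. The bars of the 6 CXC members are between 3.20 and 9.88, and MTHFD2L beside them lies at 0.11 and 0.28; AFM, RASSF6, PF4, PPBP and EPGN held at most 28 counts in any input.

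Outside the members, 61 genes with enough counts had GGAATTTCC in the promoter window. Of these, 10 (16.4%) were called higher in the shADAR1 input, beside 8.69% of the 10126 genes with a promoter in the table. In the shHuR input 9 of 61 (14.8%) were called higher, beside 11.3%. Their median log2 ratios were 0.18 and 0.07, so most genes with these letters did not move like the CXC chemokines. No test was made of these shares.

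Other chemokines were mostly silent. Of 35 on the list, 27 had an ID in the files under their current symbol, and 4 reached 50 counts in the shADAR1 or shControl input. CXCL10, an interferon-induced attractant of T cells, had 112 counts in the shADAR1 input and 174 in the shHuR input, against 17 in the shControl input (9.23-fold and 11.1-fold higher). CXCL14 had 328 counts in the shADAR1 input and 14 in the shHuR input, against 0 in the shControl input (at least 153.1-fold and at least 5.05-fold higher). CXCL12, the stromal ligand of CXCR4, went the other way. It had 332 counts in the shADAR1 input and 180 in the shHuR input, against 767 in the shControl input (1.65-fold and 3.94-fold lower). In all, 3 of 4 other chemokines with enough counts were called higher and 0 lower with shADAR1, beside 9.14% and 10.3% of all such genes. With shHuR, 2 of 3 were higher (CCL28 and CXCL10) and 1 lower, beside 12.2% and 15.6%. All those called higher reached 50 counts only in the knockdown input, so they had to differ to be counted, and nothing is read from the shares. Of 23 chemokine receptors, ACKR3, a scavenger receptor for CXCL12, was the only one past 50 counts in an input, with 346 counts in the shADAR1 input and 1 in the shHuR input, against 10 in the shControl input.

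The list held 22 inducers, from interleukin 1 to NF-kB and AP-1. In the shADAR1 input, 2 of 17 with enough counts were called higher and 1 lower, beside 9.14% and 10.3% of all such genes. In the shHuR input, 4 of 19 were called higher (IL1A, IL1B, IL1RAP and TLR4) and 2 lower, beside 12.2% and 15.6%. Of these 4, IL1A, IL1B and TLR4 were under the count limit in the shControl input (1, 49 and 0 counts). No test was made of these shares. IL1A, a cytokine that induces chemokines, had 5 counts in the shADAR1 input and 206 in the shHuR input, against 1 in the shControl input. IL1B, its relative, had 54 counts in the shADAR1 input and 543 in the shHuR input, against 49 in the shControl input. Both were thus high in the shHuR input and low in the other inputs. FOS, a subunit of AP-1, had 2330 counts in the shADAR1 input and 119 in the shHuR input, against 471 in the shControl input (6.93-fold higher and 3.66-fold lower). NFKBIZ, an atypical inhibitor of NF-kB that also acts as a coactivator, was the 1 of 8 feedback inhibitors called higher with shADAR1 (5.82-fold). With shHuR, NFKBIZ (9.47-fold) and TNIP1 (2.67-fold) were the 2 called higher, and NFKBIE was the 1 called lower in both lines. Of all such genes, 9.14% were higher and 10.3% lower with shADAR1, and 12.2% and 15.6% with shHuR. Nothing is read from these counts of 8 genes. In the RNA-seq experiment 0 of these 8 were higher, and TNFAIP3 (2.78-fold lower) and IRAK3 were the 2 called lower in KD. The shares of all such genes there were 8.31% higher and 7.71% lower.

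Over both experiments together, ADAR1 knockdown was tested with 4 libraries (RNA-seq KD and shADAR1 input against Ctrl and shControl input, experiment as block). The quasi-likelihood test of edgeR with Benjamini-Hochberg adjustment tested 5 of the 9 genes, and 0 rose or fell at an adjusted p under 0.05. Of all 15994 genes tested, 13 rose (0.0813%) and 2 fell (0.0125%). CXCL8 had a log2 fold change of 5.28 (SE 1.18; edgeR adjusted p = 0.245), with both knockdown libraries above their controls. CXCL1 had 5.26 (SE 1.65; edgeR adjusted p = 0.669), and CXCL3, CXCL5 and CCL2 had 3.90, 3.16 and 1.21. Before adjustment, edgeR's p was under 0.05 for 4 of the 5, all but CCL2, and for 761 of the 15994 genes; without the block, CXCL3 and CXCL5 were not among them. DESeq2 called 1 of the 9, CXCL8 (DESeq2 adjusted p = 3.557e-07), and without the filter on low counts edgeR called 5. Over these alternatives the adjusted p of CXCL8 was between 4.867e-12 (edgeR without the filter) and 1.0 (edgeR without the block). For CXCL3, CXCL5 and CCL2 the RNA-seq pair and the inputs differed in sign, and the fit averages over that. In the RNA-seq pair the intervals of CXCL3 (1 and 3 counts) and CXCL5 (6 and 6) spanned 0, and that of CCL2 lay below 0.

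Recovery with HuR differed from one chemokine mRNA to the next and from line to line. Enrichment is the ratio of scaled counts in the precipitate to the input of the same line. CCL2 had the highest value in the shADAR1 and shControl lines. Its interval overlapped that of CXCL2 in both lines and that of CXCL6 with shControl, so the rank is not settled. Its counts in precipitate and input were 10201 and 3287 with shADAR1, 1101 and 2549 with shHuR, and 3212 and 691 with shControl. The log2 enrichment of CCL2 was 1.85 (interval 1.79 to 1.90) with shADAR1, 0.04 (-0.06 to 0.14) with shHuR and 3.01 (2.89 to 3.13) with shControl. The enrichment of CCL2 was thus lower in both knockdown lines, and not detectable in the shHuR line. CXCL8 had 3365 and 4136 counts in precipitate and input with shADAR1, 4558 and 24392 with shHuR, and 53 and 26 with shControl. Its log2 enrichment was -0.09 (-0.15 to -0.02) with shADAR1, -1.17 (-1.21 to -1.12) with shHuR and 1.82 (1.12 to 2.55) with shControl. CXCL8 was therefore recovered above input only in the shControl line, where its counts were low.

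CXCL2 and CXCL5 were recovered above input with shADAR1 and, less so, with shHuR. CXCL2 had 312 and 124 counts in precipitate and input with shADAR1, 72 and 92 with shHuR, and 36 and 9 with shControl. Its log2 enrichment was 1.54 (1.24 to 1.86), 0.90 (0.43 to 1.36) and 2.79 (1.71 to 4.03) in this order of lines. CXCL5 had 1226 and 600 counts with shADAR1, 1299 and 2520 with shHuR, and 24 and 22 with shControl, with log2 enrichments of 1.24 (1.10 to 1.39), 0.30 (0.20 to 0.39) and 0.92 (0.02 to 1.82). CXCL2 and CXCL5 were thus above 0 in every line. CXCL1 was at or below its input in both knockdown lines, with log2 enrichments of -0.93 (-1.02 to -0.84) with shADAR1, -1.31 (-1.42 to -1.19) with shHuR and 0.11 (-1.19 to 1.34) with shControl. With trends over GC content and length removed, CXCL1 was at 0.066 with shADAR1 and -0.50 with shHuR. CXCL6 had -0.42 (-0.60 to -0.23) with shADAR1 and -1.16 (-1.57 to -0.77) with shHuR, and CXCL3 had 0.14 (-0.06 to 0.34) and -0.40 (-0.76 to -0.06). CXCL1, CXCL2 and CXCL3 are paralogs that share 5.3% to 9.2% of their 50-base stretches with another of the 3, so reads from those stretches may have been divided among them. CCL20 had 29 and 229 counts in precipitate and input with shHuR (log2 enrichment -1.73, -2.34 to -1.17), and CCL7 held at most 1 count in any precipitate.

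**Figure D4:**
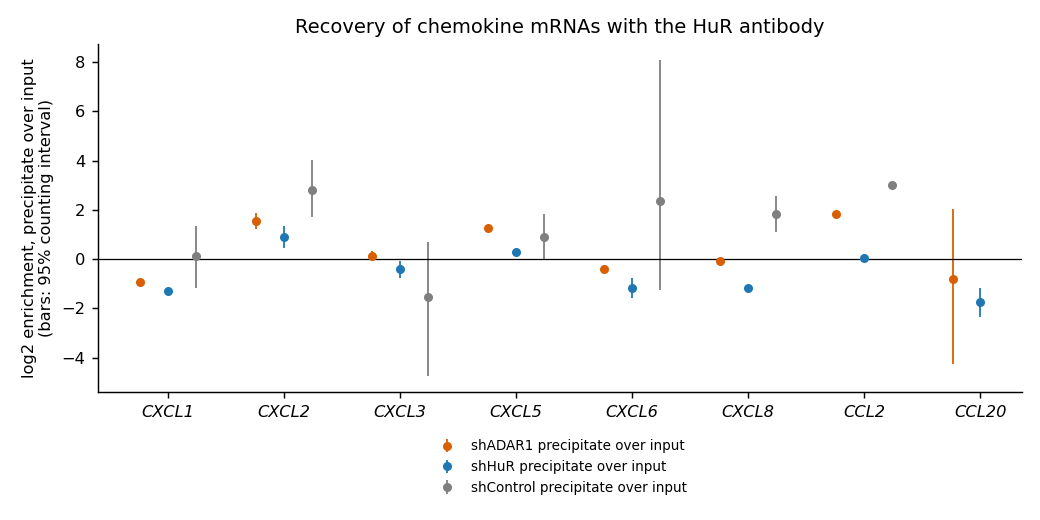
Log2 ratio of scaled counts in the HuR precipitate over the input of the same line for 8 chemokines; points rest on 1 library pair, and bars are 95% counting intervals, wide where the shControl libraries held few counts. The shHuR points lie below the shADAR1 points for CXCL1, CXCL2, CXCL3, CXCL5, CXCL6, CXCL8 and CCL2.

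At the 2-fold limit, 3 of 7 members with enough counts were enriched with shADAR1 (CCL2, CXCL2 and CXCL5) and 0 depleted, beside 30.0% of all such genes enriched and 37.5% depleted. With shHuR, 0 of 8 were enriched and 4 depleted (CCL20, CXCL1, CXCL8 and CXCL6), beside 25.5% and 25.4%. CCL20 reached 50 counts there only in the input, where it was high, so its call is given as a description. With trends over GC content and length removed, the calls of CXCL1 (-0.50), CXCL8 (-0.83) and CXCL6 (-0.66) ended with shHuR, and CXCL2 was called enriched (1.68). With shADAR1 that setting left CXCL5 at 0.9995, just under the limit, and put CXCL3 at 1.14, past it. With shControl, 2 of 2 were enriched (CCL2 and CXCL8), beside 30.7% and 38.4%, where 0 members were depleted. CXCL8 reached 50 counts there only in the precipitate, so it had to be enriched to be counted. TMM sets the median gene near 0, and scaling by total counts moved the median of all genes by -0.86, -0.99 and -0.87 in the shADAR1, shHuR and shControl lines, so that enrichment is relative to the other mRNAs. With total counts, 0 members were called enriched with shADAR1 and 1 with shControl.

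Tested over the 3 lines with the line as block (6 libraries), 3 of 8 chemokine mRNAs rose in the precipitate and 0 fell, by edgeR's quasi-likelihood test with Benjamini-Hochberg adjustment. In all, 30.3% of 16232 genes rose and 31.3% fell. CXCL2 had a log2 fold change of 1.68 (SE 0.43; edgeR adjusted p = 0.00631) and was higher in the precipitate in 3 of 3 lines. CCL2 had 1.70 (SE 0.48; edgeR adjusted p = 0.0103), and CXCL5 had 0.85 (SE 0.33; edgeR adjusted p = 0.0405), with CXCL5 above 0 in 3 of 3 lines and CCL2 in 2 of 3, its interval spanning 0 with shHuR. CXCL1 had -0.83 (SE 0.34; edgeR adjusted p = 0.0509) and did not pass. CXCL8, at 0.06, combined lines of opposite sign. Leaving out the shADAR1 line ended all 3 calls, with log2 fold changes of 1.55 for CXCL2 (edgeR adjusted p = 0.0984), 1.34 for CCL2 (0.0994) and 0.37 for CXCL5 (0.669). Without the shControl line, CXCL5 did not pass at 0.83 (edgeR adjusted p = 0.0699), CCL2 was at 1.01 and CXCL1 fell (-1.06; edgeR adjusted p = 0.0163), and without the shHuR line CCL2 was at 2.46. Over all alternatives, edgeR and DESeq2 adjusted p-values went up to 0.262 for CXCL2, 0.114 for CCL2, 0.737 for CXCL5 and 0.619 for CXCL1, each without the block for the line.

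CCL2 and CXCL8 were less enriched with shADAR1 and with shHuR than with shControl. A difference in enrichment between lines was called at 1.5-fold or more, with at least 50 counts in precipitate or input of both lines. With shADAR1 against shControl, CXCL8 was 3.74-fold less enriched (log2 difference -1.90, interval -2.64 to -1.20) and CCL2 was 2.24-fold less enriched (-1.16, -1.30 to -1.03). These 2 were the only members with enough counts, and both were called lower, beside 14.2% of all such genes lower and 19.7% higher. CXCL8 entered through the 53 counts of the shControl precipitate, where it was high, and this holds for the next comparison too; CCL2 had at least 50 counts in all 6 libraries. With shHuR against shControl, CXCL8 was 7.92-fold (-2.99, -3.72 to -2.28) and CCL2 7.81-fold (-2.97, -3.12 to -2.81) less enriched, so 2 of 2 were called lower, beside 23.5% lower and 39.4% higher. In scaled CPM, CCL2 in the precipitates was at 316.9 with shADAR1, 54.4 with shHuR and 106.4 with shControl. The shHuR precipitate thus held less CCL2 than the shControl precipitate, although the shHuR input held 3.99-fold more.

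With shHuR against shADAR1, 7 members had enough counts and all 7 had a log2 difference below 0. CCL2 was 3.49-fold less enriched with shHuR (-1.80, -1.92 to -1.69), CXCL8 2.12-fold (-1.08, -1.16 to -1.001) and CXCL5 1.93-fold (-0.95, -1.12 to -0.77). CXCL6 (-0.74, -1.19 to -0.31) and CXCL2 (-0.64, -1.21 to -0.08) were also called lower. CXCL3 (-0.54, -0.95 to -0.14) and CXCL1 (-0.38, -0.53 to -0.23) were below 0 by less than 1.5-fold. The count was 5 of 7 lower and 0 higher, beside 14.9% of all such genes lower and 35.7% higher. The median of all genes was 0.27 in this comparison, against -0.73 for these 7 with the prior count. Over genes with 6 or more ATTTA pentamers the median was -0.20 (quartiles -0.59 and 0.27). Over those with 1 to 2 pentamers it was 0.41 (quartiles -0.14 and 0.84). Among 10 other inflammatory mRNAs with AU-rich elements, 6 had enough counts, with 3 called lower (IL1B, PTGS2 and VEGFA) and 0 higher. Lower enrichment with shHuR was thus not particular to the chemokines.

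Across all mRNAs, recovery with HuR rose with the number of ATTTA pentamers in every line, and the chemokines were set beside genes with like numbers. With a prior count of 2, the median log2 enrichment over genes with 0, 1 to 2, 3 to 5, and 6 or more pentamers was -1.55, -0.93, -0.07 and 0.92 with shADAR1. It was -0.82, -0.55, -0.26 and 0.44 with shHuR, and -2.10, -0.91, 0.13 and 1.19 with shControl. The span from the first to the last class was thus smallest in the shHuR line. CCL2, with 1 pentamer, lay above the upper quartile of its class with shADAR1 (1.85 against 0.56) and shControl (3.00 against 0.60), and inside the quartiles with shHuR (0.04, quartiles -1.14 and 0.38). CXCL8, with 9 pentamers, lay inside the quartiles of its class with shControl (1.72, quartiles 0.15 and 2.16) and with shADAR1 (-0.09, quartiles -0.11 and 1.98), and below the lower quartile with shHuR (-1.17 against -0.35). CXCL2, CXCL3 and CXCL5 of the same class lay inside the quartiles with shADAR1 (1.53, 0.14 and 1.24), and CXCL6 below the lower one (-0.41). With shHuR, CXCL2 (0.88) and CXCL5 (0.30) lay inside the quartiles (-0.35 and 1.66), and CXCL3 (-0.40) and CXCL6 (-1.14) below. CXCL1, with 5 pentamers, was below the lower quartile of its class with shHuR (-1.31 against -0.86) and inside the quartiles with shADAR1 (-0.93, quartiles -1.15 and 1.22). The difference between shHuR and shControl had a median of -0.46 over genes with 6 or more pentamers (quartiles -0.97 and 0.12), against -2.89 for CXCL8. Over genes with 1 to 2 pentamers the median was 0.44 (quartiles -0.34 and 1.18), against -2.96 for CCL2. Number of pentamers and 3' UTR length move together, and their parts were not tested.

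**Figure D5:**
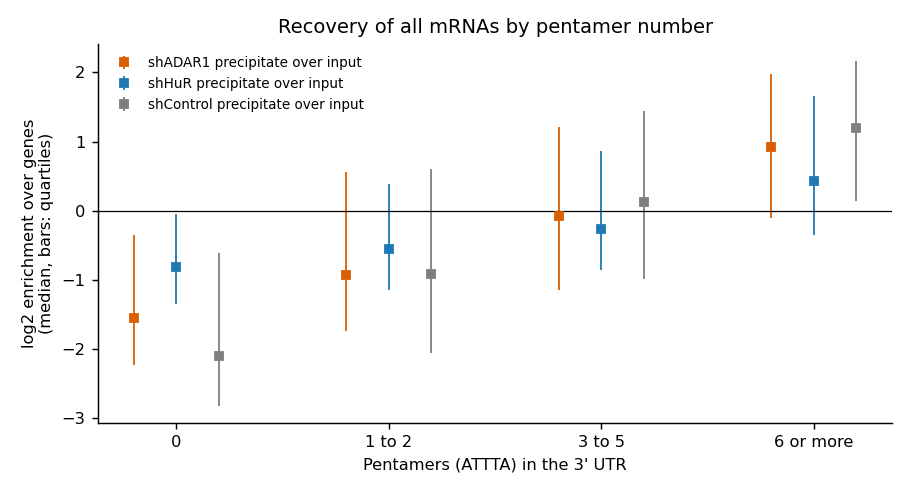
Median log2 enrichment in the HuR precipitate over input, with quartiles as bars, over genes grouped by the number of ATTTA pentamers in the 3' UTR, for each of the 3 lines. Medians go up from -1.55 to 0.92 (shADAR1), -0.82 to 0.44 (shHuR) and -2.10 to 1.19 (shControl) from 0 to 6 or more pentamers.

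Of the factors that bind or degrade AU-rich mRNAs, 10 were on the list and all had enough counts. With shADAR1, 0 were called higher or lower in the input, beside 9.14% and 10.3% of all such genes. With shHuR, 2 were higher (ZC3H12A and ZFP36L1) and 4 lower (ELAVL1 itself, HNRNPD, TIA1 and ZFP36L2), beside 12.2% and 15.6%. ZFP36L1, a decay factor, was 2.24-fold higher. Its relative ZFP36L2 went the other way, with 1062 counts in the shHuR input against 5056 in the shControl input. Among 10 other inflammatory mRNAs with AU-rich elements, 6 had enough counts with shADAR1. Of these, IL6 (2.28-fold) and PTGS2 (22.6-fold), the inducible prostaglandin synthase, were the 2 called higher and 0 were lower. The shares of all such genes were 9.14% and 10.3%. With shHuR the 5 called higher, of 8 with enough counts, were CSF2 (25.2-fold), IL1A, IL1B, IL6 (4.76-fold) and PTGS2 (47.4-fold), beside 12.2% of all such genes. IL6 was the only one of these with at least 50 counts in the shControl input. In RNA-seq KD, PTGS2 (6.62-fold) and IL11 (3.16-fold) were called higher than in Ctrl, and LIF (4.55-fold) and VEGFA (2.61-fold) lower. These were 2 and 2 of 5 with enough counts, beside 8.31% and 7.71% of all such genes.

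By root mean square difference from the median log2 ratio of the 9 chemokines in the RNA-seq pair and both input comparisons (-0.29, 5.11 and 6.83), the closest of 11956 genes was IGFBP3, a carrier of insulin-like growth factors, at 0.66. The RNA-seq median is the value of CXCL5, which had 6 and 6 counts. Only 2 of the 9 members had enough counts in that pair, with a median of 1.02, so the ranking is a description. IGFBP3 had log2 ratios of 0.69, 5.61 and 6.49, and 14700 counts in the shADAR1 input and 35109 in the shHuR input, against 420 in the shControl input. It was followed by SFTA1P (0.81), LCE2B (0.88), ANGPTL4 (0.98), a secreted lipase inhibitor, and OLR1 (1.03), a receptor for oxidised lipoprotein. ANGPTL4 had 956 counts in the shADAR1 input and 1283 in the shHuR input, against 10 in the shControl input.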

How the data were processed

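Libraries of IMR90 cells were grouped by sample titles, and file columns were matched to samples by header. The deposited expected counts come from RSEM 1.2.3 with hg19 (and GRCh37 for the precipitation libraries), per the submitters' processing notes, and were whole numbers, used as they were. FPKM values, deposited for the RNA-seq pair, served only as an alternative, with a pseudocount of 0.1. The aligner, annotation release and strand setting are not given in the sources used here. Total counts are in the report; low counts limit the shControl values.

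Counts were scaled by TMM within each experiment. A prior count of 2 was added for calls, quartiles and medians. Pairwise intervals are exact conditional binomial intervals at 95%; levels have exact Poisson intervals. A library at 0 was set to a floor of 3 counts. Tests used edgeR 4.0.16 (quasi-likelihood, its filter on low counts, Benjamini-Hochberg at 0.05), with 1 residual degree of freedom for the knockdown and 2 for the precipitation. They were also run on simulated data with less spread between libraries than was fitted here (dispersion 0.15 for the knockdown and 0.1 for the precipitation). That run does not show how the tests behave on these libraries. DESeq2 1.42.0 was an alternative. No label says that libraries of 1 kind came from separate cultures, so p-values reflect only how these libraries vary, which may be technical. Symbols were found for 52301 of 57736 IDs. Pentamers were counted in GENCODE 29 transcripts, which differ in build from the files.

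The members, the lists and the rule for named genes (all members, called members of each list with the largest and smallest ratios, senescence markers, and the 5 genes with the nearest pattern) were chosen with earlier results of these data known; the neighbours on chromosome 4, CD14 and the genes with the promoter motif were chosen after values were seen.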

Additional observations from a re-analysis of the deposited data

Results flagged for a closer look

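The direction of 5 chemokines differed between the experiments in the ADAR1 knockdown contrast, with 1 library per group in each, and the difference was not tested. With a prior count of 2, CXCL6 had a log2 ratio of -1.73 in the RNA-seq pair (KD over Ctrl) and 8.04 in the inputs (shADAR1 over shControl). CXCL3 had -0.92 in the RNA-seq pair and 5.61 in the inputs, CXCL2 had -0.28 and 3.96, CXCL5 had -0.29 and 5.11, and CCL2 had -0.34 and 2.73. CXCL2, CXCL3, CXCL5 and CXCL6 held at most 6 counts in either RNA-seq library, so their RNA-seq values carry little weight, while CCL2 had 299 and 290 counts there. ADAR was 7.01-fold lower in RNA-seq KD and 2.93-fold lower in the shADAR1 input. LMNB1 also differed in direction, 1.45-fold higher in RNA-seq KD and 2.43-fold lower in the shADAR1 input, and its part in the chemokine values was not tested.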

How the results depend on the processing

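Of 302 alternative values for single chemokines, 249 kept their direction and call, 16 lost and 16 gained a call, 17 moved and 4 reversed; the causes were not tested beyond what each setting does. The reversed values were in the precipitation test: without a block for the line, CXCL3 was at 0.018 and CXCL8 at -0.83, and CXCL8 ranged from -0.57 to 0.63 over the lines left out (-0.0091 without shADAR1). With trends over GC content and length removed, 2 members were called lower in shHuR over shADAR1 input, and with shHuR 1 was enriched (CXCL2) and 1 depleted (CCL20). With total counts, 0 were enriched and 2 depleted with shADAR1, and 1 was enriched with shControl. In the knockdown test DESeq2 gave 93 genes that rose and 27 that fell, with 1 member risen; without the filter it was 140, 34 and 5 members; without the block edgeR gave 0 and 0, and 85 genes had p under 0.05 before adjustment. In the precipitation test 1 member fell with DESeq2 and 1 without the filter; without the block 0 members rose and 3020 genes fell. With lines left out, 2831 to 5383 genes rose, 0 to 3 members rose and 0 to 1 fell. Among the inputs, precision was lowest in shControl, where 7 members had at most 26 input counts and CCL20 had 0, in a library with 36717888 counts in all. The RNA-seq libraries held fewer chemokine counts still, 476 in KD and 341 in Ctrl over the 9 genes, against 784 in the shControl input.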
